A study of Mus musculus with 4 samples.

Results

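The interleukin-1 system and the inflammasome were followed through 10 genes: the ligands Il1a, Il1b and Il18, the antagonist Il1rn, the receptors Il1r1, Il1r2 and Il1rap, and the inflammasome genes Nlrp3, Pycard and Casp1. They were taken as every probe that the array files name with one of these symbols, which gave 18 probes for 10 genes, of 56605 probes and 24813 named genes on the array. The study compared MSA Tg mice with wild-type mice, all 24 weeks old (MSA stands for multiple system atrophy, in which alpha-synuclein collects in oligodendrocytes and neurons die). There were 4 groups: transgenic brainstem/cerebellum, wild-type brainstem/cerebellum, transgenic spinal cord and wild-type spinal cord, all on a mixed background of C57BL/6, 129 and C3H mice. Each group was 1 sample on 1 single-colour Agilent array, so no comparison within a tissue or genotype has a replicate, no test was run, no p-value is given, and every value describes these 4 arrays. The sources used here do not name the transgene or the promoter that drives it. The titles of all 4 samples carry the letters PLP with no explanation, and it is not stated whether a sample was 1 animal or a pool, or whether both tissues were taken from the same mice.

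Interleukin-1 alpha and interleukin-1 beta bind the same receptor, which needs its accessory protein to signal through MyD88 and the IRAK kinases to NF-kB. The receptor antagonist occupies the receptor without signalling, and the type 2 receptor is a decoy that binds ligand and does not signal. Interleukin-1 beta and interleukin-18 are made as precursors that caspase-1 cuts once a sensor such as NLRP3 has joined the adaptor ASC, the product of Pycard, into an inflammasome, and in the central nervous system microglia are the best known source of these proteins.

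Levels are log2 processed signals with that array's own 75th percentile subtracted, so 0 is a probe at the 75th percentile and each unit is a 2-fold step on that array. A level says nothing about one probe against another. The technical SD of a difference came from repeated spots within an array and covers neither animals nor labelling: it was 0.09 for the brightest probes and 0.73 for the dimmest. Where a probe was well above background on 1 of the arrays compared, the difference is a bound, taken from the bright level down to the dim probe's level or, if that is higher, to the lowest level well above background there. A fold higher or lower states the size of a difference between 2 arrays and no test.

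Between 59.2% and 64.0% of 59305 spots per array were well above background and 0 were saturated. The wild-type spinal cord array lay on a slide of its own and the other 3 arrays shared a slide, so in the spinal cord genotype and slide cannot be told apart, while the brainstem/cerebellum comparison lay within 1 slide. The source name of all 4 samples reads brain, while their tissue labels name brainstem/cerebellum or spinal cord. Markers went with the tissue labels: the cerebellar gene Gabra6 was at 4.03 in transgenic and 3.95 in wild-type brainstem/cerebellum and not above background in either spinal cord, and 7 of 7 Hox genes of the trunk were above background on both spinal cord arrays. Of these 7 Hox genes, 3 were above background in transgenic and 2 in wild-type brainstem/cerebellum.

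Some of the sequences behind the values are shown first. 3 probes are printed because the second Il1b probe and the second Il1r2 probe gave other values than the probe that stands for the gene, and because the Pycard probe varied most among members measured on all 4 arrays. Positions are those of the array files on mm9.
Il1b, second probe (chr2:129190880-129190939, minus strand): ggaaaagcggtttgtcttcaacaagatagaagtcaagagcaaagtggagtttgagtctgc
Il1r2, second probe (chr1:40168971-40171918, plus strand, its ends 2948 bases apart): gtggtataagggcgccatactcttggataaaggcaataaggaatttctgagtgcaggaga
Pycard, probe that stands for the gene (chr7:135136241-135136300, minus strand): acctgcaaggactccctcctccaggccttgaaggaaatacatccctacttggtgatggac
The probe that stands for Il1b lies at chr2:129190347-129190406, downstream of the second probe on the minus strand, and the probe that stands for Il1r2 lies at chr1:40182006-40182066, toward the end of the same gene.

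The 250 bases before the start of Il1b, Il1a, Il1rn and Pycard, the ligand, antagonist and adaptor genes that the spinal cord results turn on, are printed from RefSeq on GRCm38.p6, with matches to the searched motifs in capitals. All 10 genes matched the promoter table, with 14 starts, and the search window ran from 250 bases before to 50 bases after each start.
Il1b (chr2:129371140-129371389, minus strand): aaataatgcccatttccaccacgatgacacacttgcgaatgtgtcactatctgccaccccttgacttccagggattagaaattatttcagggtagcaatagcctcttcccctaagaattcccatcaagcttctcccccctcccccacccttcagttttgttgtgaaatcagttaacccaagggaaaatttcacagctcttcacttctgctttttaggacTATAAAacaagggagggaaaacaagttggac
Il1a (chr2:129309973-129310222, minus strand): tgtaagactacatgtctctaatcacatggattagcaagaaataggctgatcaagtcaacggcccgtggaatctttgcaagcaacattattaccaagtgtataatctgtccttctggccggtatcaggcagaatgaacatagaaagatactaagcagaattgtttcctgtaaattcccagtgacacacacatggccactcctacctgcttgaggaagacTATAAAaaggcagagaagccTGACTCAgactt
Il1rn, start 1 (chr2:24336610-24336859, plus strand): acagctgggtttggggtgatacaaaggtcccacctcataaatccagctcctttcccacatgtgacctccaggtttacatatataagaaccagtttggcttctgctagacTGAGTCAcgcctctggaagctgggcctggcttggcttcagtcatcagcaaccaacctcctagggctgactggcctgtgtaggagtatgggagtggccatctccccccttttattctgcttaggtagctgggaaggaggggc
Pycard (chr7:127993868-127994117, minus strand): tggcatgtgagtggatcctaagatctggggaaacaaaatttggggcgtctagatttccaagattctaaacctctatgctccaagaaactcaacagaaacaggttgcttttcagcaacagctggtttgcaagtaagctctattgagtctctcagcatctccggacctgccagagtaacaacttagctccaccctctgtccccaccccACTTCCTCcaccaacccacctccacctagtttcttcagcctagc
The letters TATAAA, the TATA box, stood at -31 to -26 from the start of Il1b and at -32 to -27 from that of Il1a. The AP-1 motif TGANTCA, which reads the same on both strands, stood at -12 to -6 from the start of Il1a and at -141 to -135 from start 1 of Il1rn. The ETS motif GAGGAAGT, of the kind that PU.1 binds, stood on the opposite strand at -44 to -37 from the start of Pycard. On both strands, TATAAA was found in 4 of the 14 member promoters and in 13.6% of all 32851 promoters of the same length, TGANTCA in 2 and 7.81%, and GAGGAAGT in 1 and 3.2%. The NF-kB consensus was found in 2 member promoters, start 2 of Il1r1 and start 2 of Nlrp3, and in 4.51% of all promoters. A match describes letters only, and no match says that these letters are not in this window.

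Across the 4 arrays, 8 of the 10 genes had their highest level on the transgenic spinal cord array, and the other 2, Il18 and Nlrp3, on the wild-type spinal cord array. In brainstem/cerebellum, 8 of 10 genes were above background on at least 1 array, and 4 of these (Il1b, Il1rn, Il1r2 and Pycard) were at least 2-fold higher in the transgenic sample, against 3.62% of 17113 genes on the same arrays; 0 were at least 2-fold lower, against 0.584% of those genes. The median difference was 1.03 for these members and -0.07 for all genes. In bulk tissue more cells of a type and more RNA per cell cannot be told apart, for these and all later values. In spinal cord all 10 were above background on at least 1 array. There, 6 (Il1a, Il1b, Il1rn, Il1r1, Casp1 and Pycard) were at least 2-fold higher in the transgenic sample, against 9.68% of 17762 genes, and 1 (Nlrp3) was at least 2-fold lower, against 6.76%, with a median of 1.26 for members and -0.06 for all genes. Scaling on the spike-in probes turned these spinal cord shares into 5.76% higher and 19.8% lower, moved the median of all genes to -0.51, and left 4 members higher and 1 lower. Il1b and Il1rn in brainstem/cerebellum, and Il1a and Nlrp3 in spinal cord, entered these counts through 1 array alone, so they had to differ, and the counts and medians are given as a description. The brainstem/cerebellum count of 4 was not stable: it was 0 after normexp background correction and 0 when the probes of a gene were averaged. The normexp correction adds an offset of 50 to each intensity, which by arithmetic shrinks the log2 differences of dim probes.

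**Figure D1:**
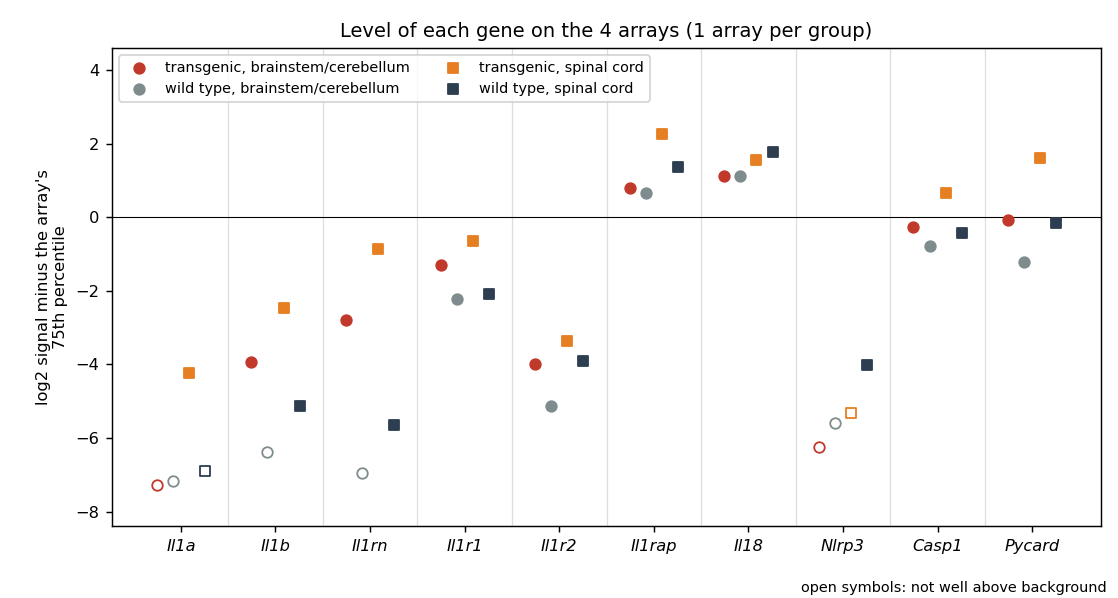
Level of the probe that stands for each gene on the 4 arrays, as log2 signal minus the array's 75th percentile (y axis), 1 symbol per array, filled where the probe was well above background and open where it was not. The transgenic spinal cord symbol is the highest for 8 of 10 genes, and Il18 and Nlrp3 are the exceptions.

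Of the alpha and beta ligands, Il1b was the one detected in both tissues. Its level was -3.94 on the transgenic brainstem/cerebellum array, against -6.39, not well above background, on the wild-type array. In spinal cord it was -2.47 on the transgenic array, against -5.14 on the wild-type array. That probe was at least 2.45-fold higher in transgenic brainstem/cerebellum (a bound of 1.29 on the log2 scale) and 6.36-fold higher in transgenic spinal cord (2.67, technical SD 0.53), where both arrays measured it. After normexp correction the brainstem/cerebellum bound was 0.33 and the spinal cord difference 1.08. With the mean over probes the values were 0.38 and 2.25.

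The second probe of Il1b, whose sequence is printed above, went the same way in spinal cord and the other way in brainstem/cerebellum. It read -5.62, not well above background, in transgenic and -4.43 in wild-type brainstem/cerebellum, and -4.25 in transgenic and -7.97, not well above background, in wild-type spinal cord. The bounds were -0.97 in brainstem/cerebellum, which is at least 1.95-fold lower in the transgenic sample, and 1.52 in spinal cord. The third Il1b probe, made for an Ensembl transcript, was below background on all 4 arrays. So in spinal cord both detected Il1b probes were higher in the transgenic sample, and in brainstem/cerebellum they were at odds.

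Il1a, the alpha ligand, was above background on the transgenic spinal cord array alone. Its probe at chr2:129125994-129126053 read -7.28 in transgenic and -7.16 in wild-type brainstem/cerebellum, and -4.24 in transgenic and -6.90 in wild-type spinal cord. That put it at least 2.86-fold higher in transgenic spinal cord (bound of 1.52), and no difference can be given for brainstem/cerebellum.

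Il18, the other caspase-1 substrate of the set, stood apart from the interleukin-1 ligands. It was well above background everywhere, at 1.13 on both brainstem/cerebellum arrays, 1.56 in transgenic spinal cord and 1.78 in wild-type spinal cord. Its difference was -0.00058 in brainstem/cerebellum and -0.21 in spinal cord, each with a technical SD of 0.11. Its direction in brainstem/cerebellum depended on the scaling, from -0.17 to 0.091 over the alternatives, while in spinal cord it lay between -0.67 and -0.15.

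The antagonist Il1rn had the largest difference of the 10 genes in spinal cord and the largest bound in brainstem/cerebellum. Its level was -2.80 on the transgenic brainstem/cerebellum array, against -6.95, not well above background, on the wild-type array. In spinal cord it was -0.86 on the transgenic array, against -5.65 on the wild-type array, just inside the range above background there. These levels gave a bound of 2.43 in brainstem/cerebellum, at least 5.39-fold higher in the transgenic sample, and a difference of 4.79 in spinal cord, 27.7-fold higher (technical SD 0.52). In brainstem/cerebellum the bound was 0.91 after normexp correction, against a difference of 0.94 for Pycard. With the mean over both Il1rn probes the bound was 0.11, and the second probe was not well above background on either array there. Bounds are lower limits, so the rank of Il1rn there was not settled. In spinal cord the Il1rn difference was 2.26 after normexp correction. The second Il1rn probe, at chr2:24205094-24205153, was above background on the transgenic spinal cord array alone, at -4.55, with a bound of 1.21. Both probes thus had the same direction in spinal cord, and the second gave none in brainstem/cerebellum.

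Of the receptors, the signalling receptor Il1r1 was measured on all 4 arrays. It read -1.31 in transgenic and -2.22 in wild-type brainstem/cerebellum, and -0.66 in transgenic and -2.08 in wild-type spinal cord. It was 1.89-fold higher in transgenic brainstem/cerebellum (0.92, technical SD 0.15), below the 2-fold threshold, and 2.67-fold higher in transgenic spinal cord (1.42, technical SD 0.14). With scaling on the spike-in probes the spinal cord value was 0.96, below the threshold. The wild-type tissues differed by 0.14, less than the technical SD of 0.15, so the order of these 2 arrays was not resolved.

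The decoy receptor Il1r2 read -3.98 in transgenic and -5.14 in wild-type brainstem/cerebellum, and -3.36 in transgenic and -3.92 in wild-type spinal cord. The difference was 1.16 in brainstem/cerebellum (2.24-fold, technical SD 0.55) and 0.57 in spinal cord (1.48-fold, technical SD 0.27), each a little over 2 technical SDs, and neither size was stable. With the mean over both Il1r2 probes it was -0.021 in brainstem/cerebellum and 1.67 in spinal cord. After normexp correction it was 0.23 in brainstem/cerebellum, and with scaling on the spike-in probes it was 0.11 in spinal cord. The second probe printed above was above background on the transgenic spinal cord array alone, at -4.30, with a bound of 1.46.

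The accessory protein gene Il1rap has 4 probes for different transcript ends, and they did not move alike. The probe of transcript variant 1, which stands for the gene, read 0.78 in transgenic and 0.66 in wild-type brainstem/cerebellum, and 2.25 in transgenic and 1.36 in wild-type spinal cord. Its difference was 0.13 in brainstem/cerebellum (technical SD 0.12; -0.038 with scaling on the median) and 0.88 in spinal cord, 1.84-fold higher in the transgenic sample (technical SD 0.11). The probe of variant 2 differed by 0.91 in both tissues, at technical SDs of 0.22 in brainstem/cerebellum and 0.15 in spinal cord. The probe of variant 4 differed by 0.64 in brainstem/cerebellum and -0.11 in spinal cord, and the probe of the Ensembl transcript by 0.45 and 0.21. The Il1rap probes therefore ranged from 0.13 to 0.91 in brainstem/cerebellum and from -0.11 to 0.91 in spinal cord, and the value of the gene depended on the transcript read.

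Among the inflammasome genes, the adaptor gene Pycard, which encodes ASC, read -0.09 in transgenic and -1.22 in wild-type brainstem/cerebellum, and 1.60 in transgenic and -0.17 in wild-type spinal cord. It was 2.20-fold higher in transgenic brainstem/cerebellum (1.14, technical SD 0.14) and 3.40-fold higher in transgenic spinal cord (1.77, technical SD 0.12). Both differences were over 2 technical SDs, and the gene was measured on all 4 arrays. The brainstem/cerebellum value fell short of 2-fold with scaling on the median (0.97), after normexp correction (0.94) and with the mean over both Pycard probes (0.81), and the spinal cord value was 0.60 with that mean. A second probe under the symbol Pycard reads a cDNA that the file places on the opposite strand at chr7:135140025-135140084. It was near background, at -4.60 and -5.08 in transgenic and wild-type brainstem/cerebellum and -5.64 and -5.07 in transgenic and wild-type spinal cord, with bounds of 0.48 and -0.21.

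Casp1, the protease, read -0.28 in transgenic and -0.78 in wild-type brainstem/cerebellum, and 0.66 in transgenic and -0.44 in wild-type spinal cord. Its difference was 0.51 in brainstem/cerebellum (1.42-fold) and 1.09 in spinal cord (2.13-fold), with a technical SD of 0.12 each. With scaling on the spike-in probes the spinal cord value was 0.64, below the threshold.

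The sensor Nlrp3 was the member at least 2-fold lower in a transgenic sample, and Il18 was the other member with a negative value in spinal cord. It was not well above background on 3 arrays, at -6.26 in transgenic and -5.61 in wild-type brainstem/cerebellum and -5.31 in transgenic spinal cord, and it read -4.01 in wild-type spinal cord. The transgenic spinal cord was therefore at least 2.42-fold lower (bound of -1.28), and the bound shrank to -0.33 after normexp correction. The 1 array with signal was the one on its own slide.

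**Figure D2:**
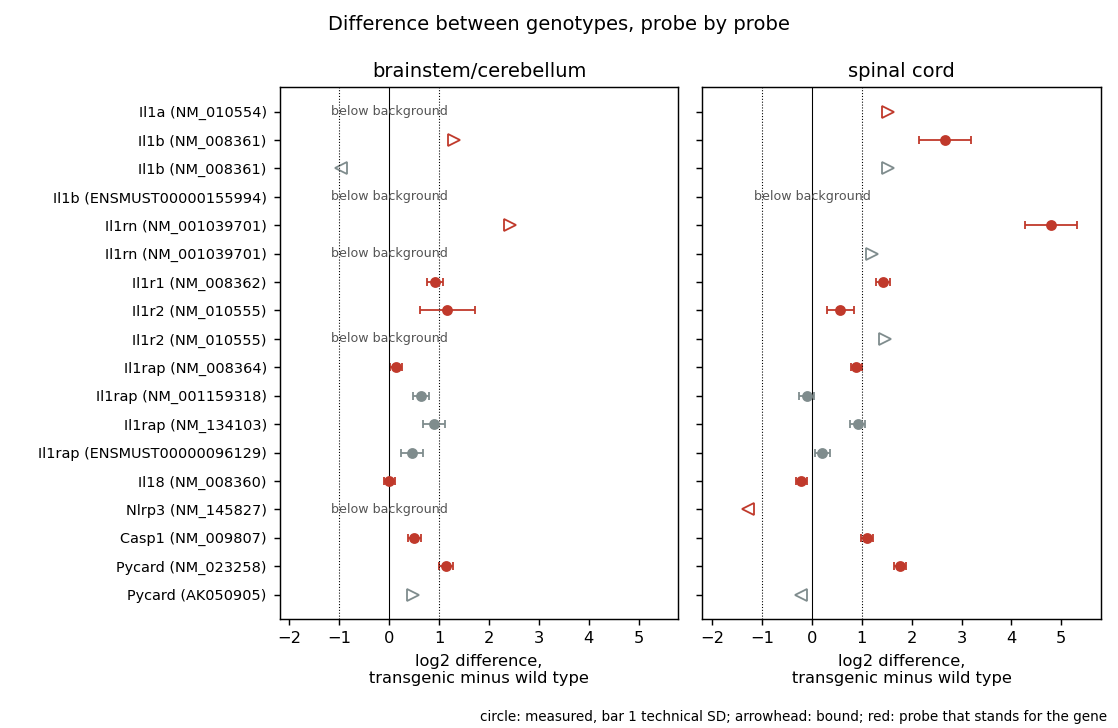
Difference between genotypes (log2, transgenic minus wild type, x axis) for each of the 18 probes in brainstem/cerebellum and in spinal cord. Circles are probes measured on both arrays with 1 technical SD as the bar, arrowheads are bounds, red marks the probe that stands for the gene, and dotted lines mark 2-fold. Il1rn lies farthest right in both tissues, Il18 lies at or just below 0, and the second Il1b probe points to opposite sides in the 2 tissues.

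Between tissues, members were compared as spinal cord against brainstem/cerebellum within each genotype. In transgenic mice 5 of 9 members above background (Il1a, Il1b, Il1rn, Il1rap and Pycard) were 2-fold or more higher in spinal cord, against 11.1% of 17477 genes, and 0 were at least 2-fold lower, against 6.98%. In wild-type mice 3 of 9 (Il1r2, Nlrp3 and Pycard) did so, against 7.27% of 17609 genes, and 0 were lower, against 4.96%. Il1a in transgenic mice and Nlrp3 in wild-type mice entered these counts through the spinal cord array alone, so they had to differ. The counts are given as a description. Pycard was the one in both sets, at 1.68 in transgenic and 1.06 in wild-type mice. In wild-type mice Il1b had a bound of 0.093 and Il1r1 differed by less than its technical SD, Il1a had no value, and the second Il1b probe had a bound of -1.33. In transgenic mice Nlrp3 had no value and the Il1rap probe of variant 4 differed by -0.42. The wild-type comparison was made across slides.

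Neutrophil marker genes gave more summed signal in spinal cord than in brainstem/cerebellum. Their summed signal was 11.1 and 7.82 times the 75th percentile in transgenic and wild-type spinal cord, against 0.499 and 0.647 times in transgenic and wild-type brainstem/cerebellum. Such a sum, here and for later lists, is carried by the brightest probes. In spinal cord these were S100a9, at 2.83 in transgenic and 2.25 in wild-type mice, and S100a8, at 0.94 and 0.52. In transgenic mice 7 of 9 such markers above background were 2-fold or more higher in spinal cord, against 11.1% of all genes. In wild-type mice it was 9 of 9, against 7.27%, while Cxcr2 was below background on all 4 arrays. Only 5 of the 10 markers were above background in transgenic and 4 in wild-type brainstem/cerebellum. Markers above background in spinal cord alone had to differ, so these counts are a description. Neutrophils are known to carry Il1b and Il1r2, and the part of these markers in the tissue differences of Il1b (1.47 in transgenic mice) and Il1r2 (0.63 in transgenic and 1.22 in wild-type mice) was not tested. Between genotypes 0 of 5 neutrophil markers passed 2-fold in brainstem/cerebellum, with a median of -0.39. In spinal cord, with a median of 0.50, 1 of 9 was higher (Mmp8, 1.13) and 1 was lower (Ly6g, a bound of -1.74).

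For the 6 genes measured on all 4 arrays, the genotype difference in spinal cord can be set against that in brainstem/cerebellum. The genotype difference in spinal cord minus that in brainstem/cerebellum was 0.75 for Il1rap, 0.63 for Pycard, 0.59 for Casp1 and 0.50 for Il1r1. It was -0.60 for Il1r2 and -0.21 for Il18, on the log2 scale. These gaps depended on the processing. With scaling on the spike-in probes the brainstem/cerebellum and spinal cord differences were 1.01 and 0.96 for Il1r1 and 0.60 and 0.64 for Casp1. They were 1.23 and 1.31 for Pycard and 0.22 and 0.42 for Il1rap. With the mean over probes they were 0.81 and 0.60 for Pycard, 0.53 and 0.47 for Il1rap, and -0.021 and 1.67 for Il1r2. None of these gaps has a replicate, so the differences between tissues were not tested.

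Genes with the most similar profile were sought among 15731 genes above background on all 4 arrays, by the largest gap between profiles centred on their own mean over the 4 arrays. For Pycard these were Tmem176a, Arhgdib and Tnfrsf13b, with largest gaps of 0.04, 0.05 and 0.06. For Il1r2 they were 1700030M09Rik, Prrx2 and Ccr6, with gaps of 0.11, 0.17 and 0.18. For Il1r1 they were Ncaph, 5830408C22Rik and Asf1b, with gaps of 0.04, 0.09 and 0.10. With 4 points among so many genes a close match is a description only.

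The wider pathway was read through 5 lists with 65 entries. Beside the genotype counts of these lists and of all marker lists stand the shares of all genes. At least 2-fold higher were 3.62% in transgenic brainstem/cerebellum and 9.68% in transgenic spinal cord. At least 2-fold lower were 0.584% and 6.76%. In the interleukin-1 family beyond the members, 2 of 7 genes above background were at least 2-fold higher in transgenic brainstem/cerebellum, with a median of 0.45, and 4 of 8 in transgenic spinal cord, with a median of 0.80, where 1 was lower. Both calls in brainstem/cerebellum were bounds that came through the transgenic array alone. Among genes above background on all 4 arrays 0 were higher in brainstem/cerebellum, with a median of 0.072, and in spinal cord 2 were higher and 1 was lower, with a median of -0.16. After normexp correction 0 were higher in brainstem/cerebellum and 4 in spinal cord. Il1rl2, the interleukin-36 receptor, was at least 4.57-fold higher in transgenic brainstem/cerebellum and 12.2-fold higher in transgenic spinal cord. Il1rl1, the interleukin-33 receptor, was at least 3.46-fold and at least 11.8-fold higher in these tissues. Il18bp, which neutralises interleukin-18, differed by 0.90 and 2.24, and the alarmin Il33 by 0.45 and 1.63. The 1 gene 2-fold or more lower in transgenic spinal cord, Il1rapl2 at -1.15, is named because the count is 1.

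Inflammasome sensors beyond Nlrp3 gave 2 of 5 higher in transgenic brainstem/cerebellum, with a median of 0.10. In transgenic spinal cord 3 of 5 were higher, with a median of 1.39. Nlrp10 in brainstem/cerebellum and Nlrp1b in spinal cord entered these counts through the transgenic array alone and had to differ. Among genes above background on all 4 arrays 1 was higher in each tissue, with medians of 0.018 and 0.39. After normexp correction the counts were 0 and 1. Naip2, a sensor of bacterial secretion systems, differed by 1.19 in brainstem/cerebellum and 2.41 in spinal cord. Aim2, a sensor of double-stranded DNA, had a bound of 0.10 and a difference of 2.37. Nlrp10 had a bound of 1.10 in brainstem/cerebellum and was below background in spinal cord, where Nlrp1b had a bound of 1.39, and Nlrp1a differed by -0.055 and 0.39. Among partners and effectors of pyroptosis, 2 of 9 were higher in transgenic brainstem/cerebellum and 5 of 10 in transgenic spinal cord, with 0 lower and medians of 0.22 and 0.93. The brainstem/cerebellum median ran from 0.058 with scaling on the median to 0.76 with the mean over probes. In spinal cord scaling on the spike-in probes gave 3 higher and 1 lower, with a median of 0.47. Under that scaling 5.76% of all genes were higher and 19.8% lower there. Casp4, which senses lipopolysaccharide and cuts gasdermin D, was 4.91-fold and 11.9-fold higher in the transgenic samples of the 2 tissues, and Gsdmd, the pore-forming gasdermin D itself, 2.20-fold and 3.94-fold. Casp8 differed by 0.95 and 1.85 and Txnip, which binds NLRP3, by 0.67 and 1.10.

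The signalling chain below the receptor stayed mostly within 2-fold. Of 16 genes, all above background on all 4 arrays, 1 was at least 2-fold higher in transgenic brainstem/cerebellum (the kinase Irak4, 1.04) and 2 in transgenic spinal cord (Irak4, 1.22, and the adaptor Myd88, 1.10), with medians of 0.045 and 0.25. Its direction was not settled: the median was -0.12 in brainstem/cerebellum with scaling on the median and -0.20 in spinal cord with scaling on the spike-in probes. The medians of all genes under these scalings were -0.24 and -0.51. The calls were not stable either. In brainstem/cerebellum 0 were higher with scaling on the median, quantile normalization, normexp correction or the authors' values. In spinal cord 0 were higher after normexp correction or with scaling on the spike-in probes. Of all genes 3.62% and 9.68% were higher in these tissues. The inhibitory kinase Irak3 differed by 0.15 and 0.85, the ligase Traf6 by 0.18 and 0.84 (its other probes by -0.14 to 0.085 and -0.35 to 0.11), Rela by 0.03 and 0.84 and Irak1 by -0.19 and 0.19. In spinal cord the other measured probe gave 0.095 for Irak3, 0.26 for Rela and 0.96 for Irak4. Genes that interleukin-1 is known to induce differed far more: 6 of 11 were at least 2-fold higher in transgenic brainstem/cerebellum, with a median of 1.52, and 11 of 12 in transgenic spinal cord, with a median of 2.32, against the 3.62% and 9.68% of all genes given above. Il6, Saa3, Cxcl1 and Ptgs2 in brainstem/cerebellum, and Il6 and Zc3h12a in spinal cord, entered through the transgenic array alone and had to differ. Among genes above background on all 4 arrays 3 and 6 were higher, with medians of 0.71 and 2.07. After normexp correction 4 and 8 passed 2-fold. Lcn2, an iron-sequestering acute-phase protein, was 54.3-fold higher in transgenic brainstem/cerebellum and 23.1-fold in transgenic spinal cord. Saa3 was at least 30.8-fold and 72.5-fold higher, the chemokine Ccl2 16.3-fold and 36.0-fold, and Il6 at least 2.87-fold and at least 19.5-fold. Cxcl1 was at least 7.65-fold and 17.4-fold higher. These genes are known to answer other signals as well.

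**Figure D3:**
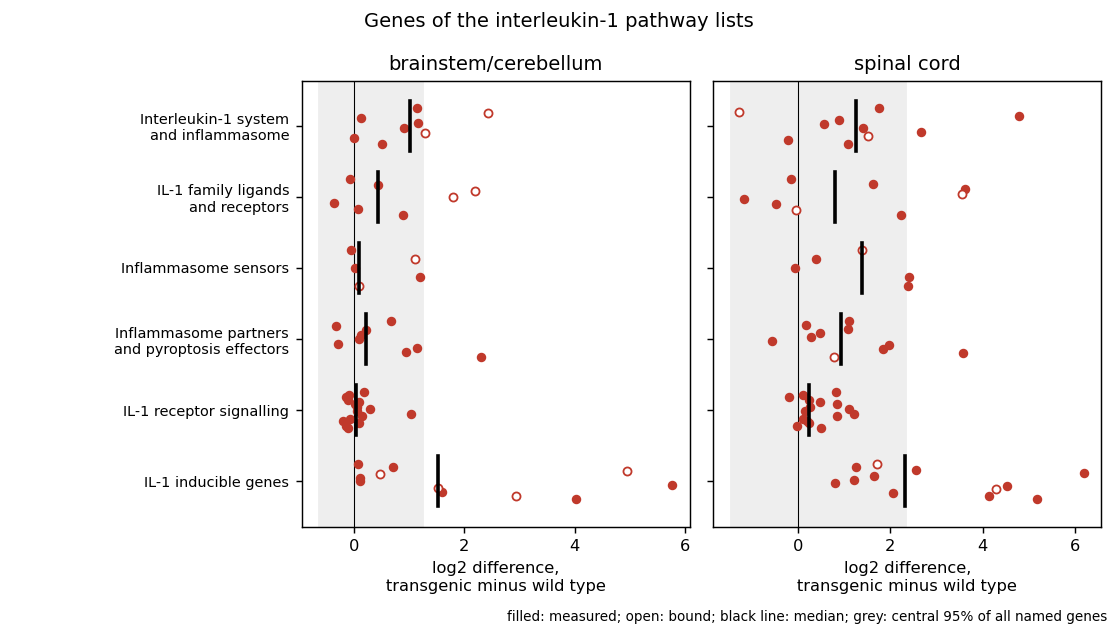
Difference between genotypes (log2, transgenic minus wild type, x axis) of the members and of each pathway list, in brainstem/cerebellum and in spinal cord, 1 point per gene, open where it is a bound, with the list median as a black line and the central 95% of all named genes in grey. The signalling list sits near 0 (its median changes sign with the scaling), and the inducible list reaches 5.76 in brainstem/cerebellum and 6.18 in spinal cord.

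Markers of the cells that could carry these transcripts differed between genotypes as well. Of 9 microglia and brain macrophage markers, all above background, 2 were at least 2-fold higher in transgenic brainstem/cerebellum and 5 in transgenic spinal cord, with medians of 0.65 and 1.37, and 1 was lower in spinal cord. Fcrls differed by 1.46 and 2.74, Aif1 by 1.16 and 2.15 and Cx3cr1 by 0.83 and 1.86. The summed signal of this list was 84.6 and 60.5 times the 75th percentile in transgenic and wild-type brainstem/cerebellum, and 175 and 122 times in transgenic and wild-type spinal cord. In spinal cord 3 of the 9 markers were negative, the opposite direction to these: Siglech at -1.62, Itgam at -0.28 and P2ry12 at -0.23, named after their values were seen.

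Of the monocyte and infiltrating macrophage markers, 3 of 7 were at least 2-fold higher in transgenic brainstem/cerebellum and 4 of 7 in transgenic spinal cord. Ms4a7, a macrophage gene, was 9.47-fold and 69.6-fold higher and Chil3 6.37-fold and 5.08-fold. The defining monocyte receptor Ccr2 was below background on all 4 arrays. The summed signal was 21.7 and 16.5 times the 75th percentile in transgenic and wild-type brainstem/cerebellum and 53.1 and 21.3 times in transgenic and wild-type spinal cord. The differences of Il1b, Il1rn, Casp1 and Pycard came with higher values of most microglia and macrophage markers. Siglech, Itgam and P2ry12 were negative in spinal cord and positive in brainstem/cerebellum. The part of these cells in the differences of the 4 members was not tested.

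Of 6 astrocyte markers 2 were at least 2-fold higher in transgenic brainstem/cerebellum, Gfap at 1.43 and Gja1 at 1.95. In spinal cord Gfap was at 1.08 and Gja1 at -1.81. The Gja1 values rest on 1 of its 8 probes, as the others ranged from -0.28 to 0.50 in brainstem/cerebellum and from -0.43 to -0.41 in spinal cord, and the second Gfap probe gave 0.81 and 0.40. With the mean over probes 1 astrocyte marker passed 2-fold in brainstem/cerebellum and 0 in spinal cord. Oligodendrocyte markers gave 0 of 6 past 2-fold in either direction and tissue, with medians of 0.047 and 0.13 that turned to -0.12 in brainstem/cerebellum with scaling on the median and -0.33 in spinal cord with scaling on the spike-in probes. The neuron markers had medians of -0.24 in brainstem/cerebellum and -0.59 in spinal cord, where Nefl was at -1.15. With scaling on the spike-in probes the spinal cord median was -1.05, with 4 neuron markers at least 2-fold lower. Of 6 endothelial markers 0 were at least 2-fold higher and 1 was lower in each tissue, Kdr at -1.32 and -1.84. The endothelial medians were -0.16 and -0.37, and 1 marker was positive in brainstem/cerebellum and 2 in spinal cord. With the mean over probes 0 endothelial markers were at least 2-fold lower in either tissue. Blood and lymphocyte markers gave 0 past 2-fold in both tissues. The cerebellum list had a median of 0.017 in brainstem/cerebellum and -0.78 in spinal cord, and the Hox list 0.25 and 0.0012. Of these, the cerebellum value in brainstem/cerebellum turned to -0.15 with scaling on the median, and in spinal cord scaling on the spike-in probes gave -1.24 for the cerebellum list and -0.46 for the Hox list. Beside all list medians under these scalings stand those of all genes, -0.24 in brainstem/cerebellum and -0.51 in spinal cord.

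**Figure D4:**
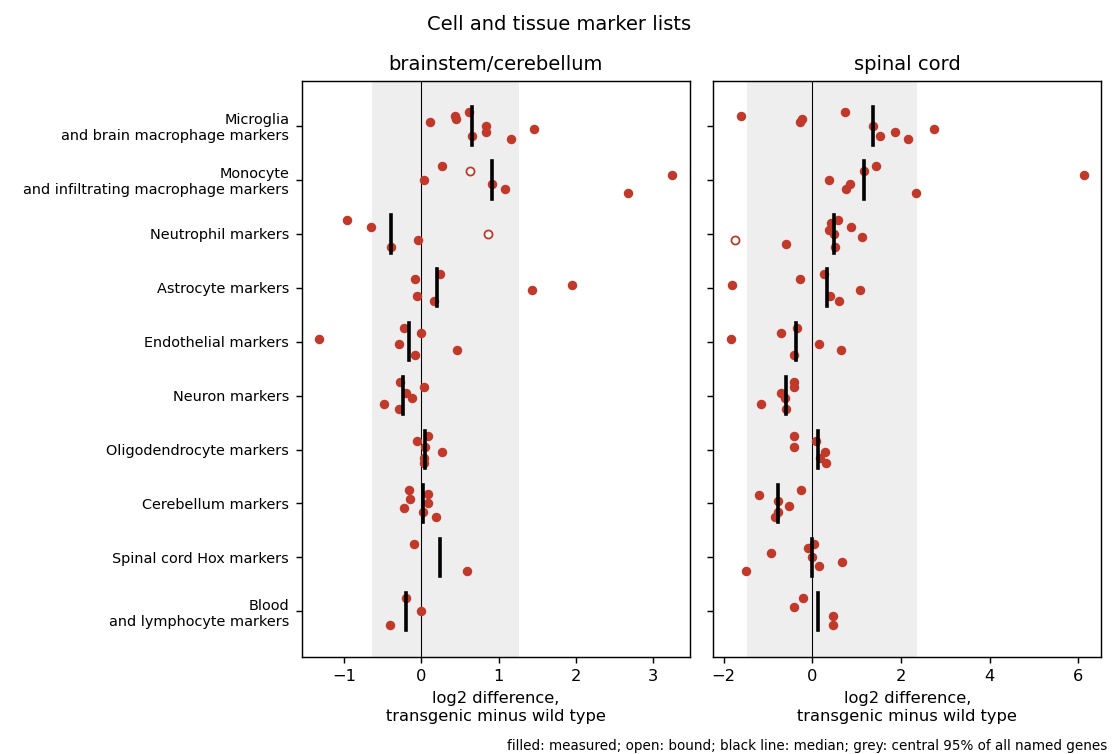
Difference between genotypes (log2, transgenic minus wild type, x axis) for the cell and tissue marker lists in brainstem/cerebellum and in spinal cord, 1 point per gene, open where it is a bound, with the list median as a black line and the central 95% of all named genes in grey. The medians of the microglia and macrophage lists lie to the right of 0 in both tissues, with Ms4a7 the farthest point, and the oligodendrocyte list lies around 0, on either side of it depending on the scaling.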

How the data were processed

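Total RNA was extracted with TRIzol, labelled with Cy3 after low-input amplification and hybridised to 4 arrays, per the labels' protocols. The deposited scanner files give linear intensity per spot from Agilent Feature Extraction, version 10.7.1.1 per the file headers and 9.5.1.1 per the submitters' processing notes. The processed intensity was background-subtracted and not scaled between arrays, per the file headers, and probe positions are on mm9. The authors' series table holds processed intensities, and the sources used here do not state their normalization. Each column's median was 30.4 and the values followed quantile normalization with a Pearson correlation of 0.99998 across probes, so their scale is linear and their direction known.

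Log2 processed signals minus each array's 75th percentile (458 and 437 in transgenic and wild-type brainstem/cerebellum, 410 and 678 in transgenic and wild-type spinal cord) were compared, without control or outlier-flagged spots (63 to 134 per array, 0 of them on member probes). Of 56605 probes, 43738 were named through a table of assembly GRCm38.p6. Where a gene had several probes, the brightest on average over all arrays was used for it. The threshold was 2-fold, bounds included. With 1 array per group the number of arrays sets the precision, and the slide could not be fitted as a block. Python 3.11.15, pandas 2.3.3, R 4.3.3 and limma 3.58.1 were used, and the steps were tested on simulated data. Named genes were all members, up to 4 per pathway list and 3 per marker list with the largest difference or bound in each tissue, and the 3 nearest profiles of the 3 members that varied most. A gene that this rule names is not reported here. Members, lists and rules were chosen with earlier results of these data known. The 10 alternatives were other scalings, a background correction, the authors' values, probe averaging, filters and thresholds.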

Additional observations from a re-analysis of the deposited data

Results flagged for a closer look

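Some probes had values of opposite sign in the 2 tissues, and none of these differences between tissues was tested. The second probe of Il1b had a bound of -0.97 in brainstem/cerebellum and of 1.52 in spinal cord. The Il1rap probe of transcript variant 4 differed by 0.64 in brainstem/cerebellum and -0.11 in spinal cord, the spinal cord value being within its technical SD of 0.15. The opposite-strand probe under the symbol Pycard had bounds of 0.48 and -0.21 in this order, within technical SDs of 0.55 and 0.73. Among marker genes the astrocyte gap-junction gene Gja1 differed by 1.95 in brainstem/cerebellum and -1.81 in spinal cord on 1 of its 8 probes, while the others ranged from -0.28 to 0.50 and from -0.43 to -0.41. The Purkinje cell gene Pcp2 differed by 0.087, within the technical SD of 0.09 for bright probes, and by -1.20. The neutrophil genes S100a9 and S100a8 differed by -0.96 and -0.64 in brainstem/cerebellum and by 0.58 and 0.42 in spinal cord, and Ly6g had bounds of 0.86 and -1.74. The microglia genes Siglech, Itgam and P2ry12 differed by 0.43, 0.12 and 0.44 in brainstem/cerebellum and by -1.62, -0.28 and -0.23 in spinal cord. With 1 array per group such a reversal has no replicate. The interleukin-1 receptor kinase Irak1 differed by -0.19 and 0.19, and the sensor Nlrp1a by -0.055, within the same technical SD, and 0.39.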

How the results depend on the processing

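The number of members at least 2-fold higher in transgenic brainstem/cerebellum was 4. It was 2 with scaling on the median, 0 after normexp correction, 0 with the mean over probes, 2 among genes above background on all 4 arrays and 1 at a 3-fold threshold. Its median difference of 1.03 became 0.86, 0.37, 0.44 and 0.71 under the first of these settings in the same order, and 0.71 with a more lenient filter on dim probes. In spinal cord the count of 6 became 3 among genes above background on all 4 arrays and 3 at a 3-fold threshold, and the count of 1 lower became 0 under normexp, that filter and that threshold. The spinal cord median of 1.26 became 0.92 under normexp, 0.80 with scaling on the spike-in probes and 0.99 with genes above background on all 4 arrays. Il1r2 in brainstem/cerebellum became -0.021 with the mean over probes. The normexp correction adds an offset of 50 to each intensity, which by arithmetic shrinks the log2 differences of dim probes. How much of the normexp shifts this makes up was not tested. The cause of the other shifts was not tested either, beyond the fewer genes that the stricter filter leaves. Scaling on the median moved the median of all genes in brainstem/cerebellum to -0.24, against -0.07 in the values above. Quantile normalization and the authors' values changed none of these counts by over 1.5 times. The signs of Pycard, Il1r1 and Casp1 held in both tissues under all settings, but not the sizes. Those of Il1rn and Il1b held in spinal cord under all settings in which they had a value. In brainstem/cerebellum Il1rn and Il1b were bounds under most settings. A bound through the transgenic array alone is kept only where it is positive, so there the sign is no result. The second Il1b probe had a bound of -0.97 in that tissue. The lowest values in brainstem/cerebellum were 0.11 for Il1rn and 0.33 for Il1b, which are bounds, and 0.81 for Pycard. In spinal cord they were 2.26 for Il1rn, 1.08 for Il1b and 0.60 for Pycard. Signal near background limits Il1a, Il1b, Il1rn, Il1r2 and Nlrp3, whose values are bounds or rest on dim probes. No paired analysis was possible because the labels carry no replicate numbers and do not say that samples share animals. A fit of genotype with tissue as a block, which assumes 1 difference for both tissues, was not run. The slide could not be fitted as a block in a comparison of 2 arrays.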
